A study of Mus musculus with 6 samples.

Results

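The proteasome subunit genes were described in brain RNA of mice at postnatal day 15. Members were the protein-coding genes whose symbol begins with Psma, Psmb, Psmc or Psmd followed by a digit, pseudogenes left out. This rule used no measured value and found 40 of the 54532 genes in the deposited table. Of these, 8 encode alpha subunits of the 20S core, 4 encode beta subunits without catalytic activity, 3 encode the constitutive catalytic beta subunits, 3 encode their immunoproteasome counterparts and 1 (Psmb11) encodes a thymus-specific catalytic subunit. The 19S regulatory particle accounted for 6 ATPases, 3 further base subunits and 8 lid subunits, and 3 members (Psmd5, Psmd9 and Psmd10) encode chaperones of 19S assembly. Psmc3ip carries the prefix but encodes a partner of meiotic recombination proteins, so it is not a proteasome subunit and is given separately.

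Gene expression was measured by RNA sequencing in 3 brains labelled Angptl2-/- and 3 labelled Angptl2+/+, and the question was which transcripts change when the secreted glycoprotein ANGPTL2 is missing. Angptl2-/- mice lacked exon 2 of Angptl2 in the whole body. They descended from C57BL/6 males whose floxed Angptl2 was removed by a Cre under the germ-cell promoter Stra8, mated with wild-type females. Angptl2+/+ mice carried the gene intact, both genotypes were sampled at day 15, and the labels do not say which dissection was used or whether each sample was a separate mouse, so p-values measure the spread between these samples, which may in part be technical.

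The proteasome is the large protease that degrades proteins tagged with ubiquitin. The 20S core is a stack of rings in which the alpha subunits gate entry and the beta subunits PSMB5, PSMB6 and PSMB7 cut, with chymotrypsin-like, caspase-like and trypsin-like activity. The 19S particle binds the ubiquitin chain, removes it in the lid and threads the protein into the core with its ring of ATPases, which together with the core makes the 26S proteasome. Interferon-gamma induces PSMB8, PSMB9 and PSMB10, which replace PSMB5, PSMB6 and PSMB7 in the immunoproteasome, a form used mainly by immune cells to make peptides for antigen presentation. When proteasome activity falls, the transcription factor NFE2L1 raises the subunit genes together through antioxidant response elements in their promoters. In neurons the proteasome takes part in synaptic remodelling and protein quality control.

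Values were FPKM, fragment counts scaled to exon length and to library size, which compare levels between genes per unit of length. The libraries held between 17127276 and 18928921 fragments in genes in Angptl2-/- brains and between 17457051 and 18167953 in Angptl2+/+ brains, and 20 to 4929 fragments lay behind each value of a tested member. The targeted gene Angptl2 had 0.166, 0.320 and 0.126 FPKM in the libraries labelled Angptl2-/-, against 0.660, 0.958 and 0.290 FPKM in those labelled Angptl2+/+. Its level in the second Angptl2-/- library thus lay above that in the third Angptl2+/+ library, and its mean was too low to be tested. Choroid plexus markers summed to between 104 and 937 FPKM in Angptl2-/- brains, against 1.64 to 7.39 FPKM in Angptl2+/+ brains, with 5 of the 6 genes higher in every Angptl2-/- library and the marker Kcne2 at 0 in at least 1 library. The marker Ttr made up most of the Angptl2-/- sums, at 141, 916 and 99.6 FPKM, against 2.34, 4.29 and 0.580 FPKM in Angptl2+/+ brains. Endothelial markers summed to 41.7 to 52.6 FPKM in Angptl2-/- brains and 59.3 to 66.8 FPKM in Angptl2+/+ brains, with 1 of 4 genes lower in every Angptl2-/- library. Red blood cell markers summed to 125 to 274 FPKM in Angptl2-/- brains and 302 to 498 FPKM in Angptl2+/+ brains, with 3 of 5 genes lower in every Angptl2-/- library. The sums of oligodendrocyte (2 of 6 genes lower in every Angptl2-/- library), striatal (2 of 6 higher), neuronal, astrocyte, microglial and cerebellar markers overlapped, although the first Angptl2+/+ library stood apart in cerebellar markers with 83.3 FPKM, against 12.8 to 27.0 FPKM in the others. Their part in the results below was not tested, and in bulk RNA fewer cells of a type cannot be told apart from less RNA per cell.

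The 31 members that encode constitutive subunits of the 26S proteasome were expressed in all 6 libraries. Their mean over the 6 libraries ran from 8.75 FPKM for the lid gene Psmd11 to 66.0 FPKM for the ATPase gene Psmc5, a 7.54-fold range around a median of 22.5 FPKM. The 14 genes of the constitutive 20S core lay within a 3.55-fold range, from 17.0 FPKM for Psma3 to 60.4 FPKM for Psmb5. The chaperone genes were lower, at 6.81 FPKM for Psmd5, 5.76 FPKM for Psmd10 and 2.59 FPKM for Psmd9. Immunoproteasome genes were uneven, as Psmb10 averaged 11.9 FPKM while Psmb8 and Psmb9 averaged 0.265 and 0.129 FPKM.

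**Figure D1:**
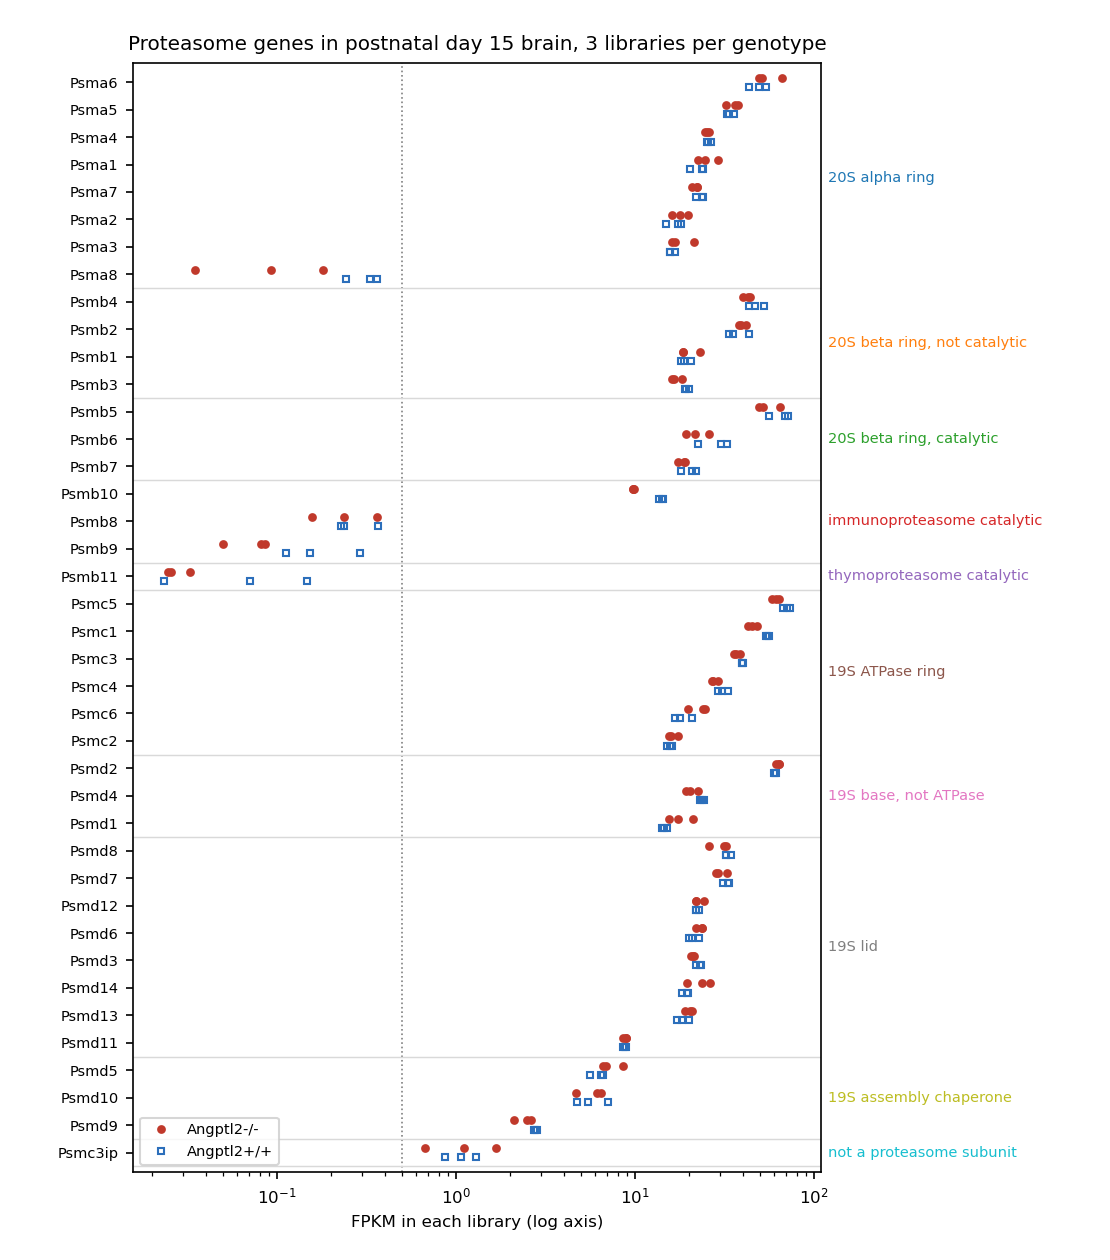
FPKM of the 40 members in each library on a log axis, with filled circles for Angptl2-/- and open squares for Angptl2+/+ libraries and the dotted line at the filter of 0.5 FPKM. The constitutive subunits lie between 8.75 and 66.0 FPKM on average, whereas Psma8, Psmb8, Psmb9 and Psmb11 lie under the filter.

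A gene was tested when its mean over the 6 libraries reached 0.5 FPKM, which held for 36 of the 40 members and 14862 genes in all. The genotypes were compared on the log2(FPKM + 0.1) scale with limma, a linear model that moderates each gene's variance, and p-values were adjusted over all genes tested by the Benjamini-Hochberg method. A log2 fold change is Angptl2-/- minus Angptl2+/+, and on this scale it understates the change of low genes. None of the 36 members passed an adjusted p of 0.05, with adjusted p between 0.273 and 0.998, and the same was true of all 14862 genes (0.0%). At an unadjusted p under 0.05, 2 members were lower in Angptl2-/- brains (Psmb10 and Psmc1) and 0 were higher, or 2 of 36 against 16.2% of all genes tested, of which 9.12% were lower and 7.09% higher. With voom on the recovered fragment counts, 0 of the genes tested passed as well.

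The members went in both directions. Their log2 fold changes ran from -0.53 to 0.30 with 19 positive and 17 negative, and their median was 0.0043, against -0.0043 over all genes tested. The mean log2 level of the tested members, relative to the Angptl2+/+ mean, was -0.02, -0.08 and 0.02 in Angptl2-/- brains and 0.02, 0.01 and -0.04 in Angptl2+/+ brains, so the genotypes overlapped. The median residual SD of the members was 0.0995 on the log2 scale, against 0.212 over all genes tested. The genes tested reach down to a mean of 0.5 FPKM, whereas the constitutive subunits had a median of 22.5 FPKM. Spread was not compared at a matched level, so the lower SD is no trait of the members. In 12 members (33.3%) the 3 libraries of one genotype lay wholly apart from those of the other, 9 with Angptl2-/- below and 3 above, against 22.5% of all genes tested (11.8% below and 10.7% above).

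**Figure D2:**
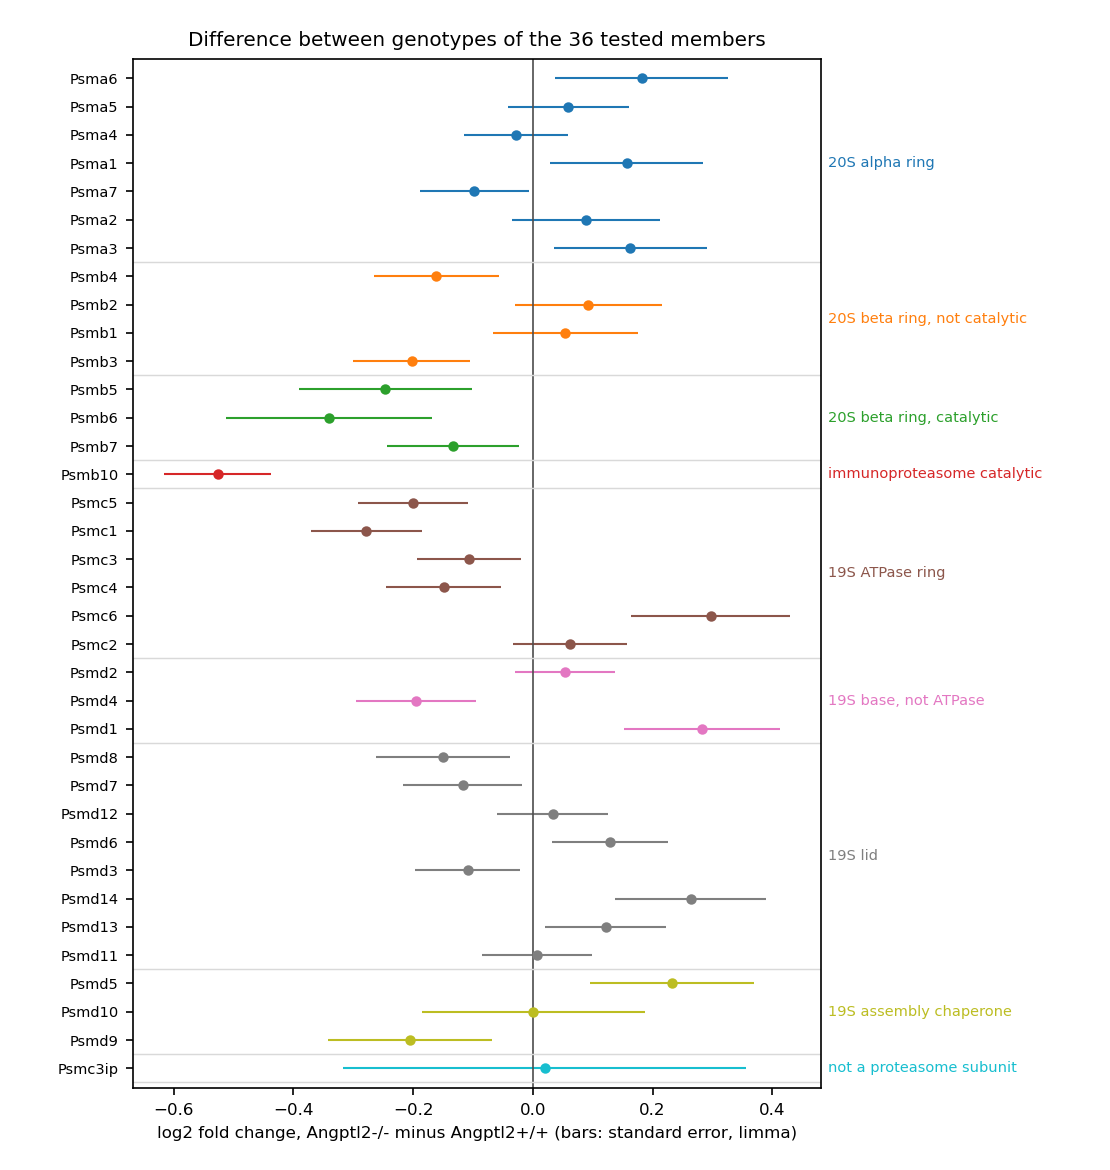
Log2 fold change of the 36 tested members, Angptl2-/- minus Angptl2+/+, by role, with bars for the standard error from limma. The values spread from -0.53 for Psmb10 to 0.30 for Psmc6 with no common direction.

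The alpha ring genes, whose products form the gate of the core, had log2 fold changes between -0.10 and 0.18 over the 7 tested, 5 of them positive. Psma6, the most abundant, had 51.3, 49.6 and 66.6 FPKM in Angptl2-/- brains and 53.9, 49.5 and 43.6 FPKM in Angptl2+/+ brains. Psma3, with the smallest p of this ring, had 16.1, 16.8 and 21.3 FPKM in Angptl2-/- brains and 16.7, 15.7 and 15.7 FPKM in Angptl2+/+ brains. For both genes the third Angptl2-/- library was the highest of the 6 and the other libraries overlapped, with log2 fold changes of 0.18 (SE 0.15) and 0.16 (SE 0.13) and limma adjusted p of 0.534 and 0.526.

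Psma8, the testis-specific alpha subunit, was near the limit of detection. It had 4, 1 and 7 fragments in Angptl2-/- brains, against 16, 15 and 10 in Angptl2+/+ brains, or 0.0924, 0.0350 and 0.180 FPKM against 0.364, 0.332 and 0.244 FPKM. The libraries of the genotypes did not overlap. When the filter on low values was dropped, its log2 fold change was -1.08 (SE 0.40) with a limma adjusted p of 0.469. In that fit 14.4% of 29827 genes had genotypes that did not overlap, 7.12% with Angptl2-/- below.

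The beta subunit genes without catalytic activity showed no common direction, 2 of 4 being positive. Psmb4 was the most abundant with 42.9, 40.4 and 43.8 FPKM in Angptl2-/- brains and 52.3, 46.8 and 43.4 FPKM in Angptl2+/+ brains. Psmb3 had 18.3, 16.5 and 16.0 FPKM in Angptl2-/- brains and 19.1, 20.1 and 19.2 FPKM in Angptl2+/+ brains. Psmb3 was the only constitutive 20S gene whose genotypes did not overlap, with a log2 fold change of -0.20 (SE 0.10) and a limma adjusted p of 0.345.

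The constitutive catalytic genes had negative log2 fold changes in 3 of 3 cases, none past the test. Psmb5, which encodes the chymotrypsin-like subunit, had 52.0, 49.4 and 64.6 FPKM in Angptl2-/- brains and 68.6, 71.7 and 56.4 FPKM in Angptl2+/+ brains. Psmb6, the caspase-like subunit gene, had 26.1, 19.4 and 21.6 FPKM in Angptl2-/- brains and 30.2, 32.6 and 22.6 FPKM in Angptl2+/+ brains. Psmb7, the trypsin-like subunit gene, had 18.8, 17.4 and 19.1 FPKM in Angptl2-/- brains and 22.0, 20.8 and 18.05 FPKM in Angptl2+/+ brains. In each of these the third Angptl2+/+ library was the lowest of its genotype and the genotypes overlapped. The log2 fold changes were -0.25 (SE 0.14) for Psmb5, -0.34 (SE 0.17) for Psmb6 and -0.13 (SE 0.11) for Psmb7, with limma adjusted p of 0.415, 0.363 and 0.546.

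Psmb10, the immunoproteasome gene that replaces Psmb7, had the smallest p of the members. It lies on chromosome 8 at 105935735 to 105938444 on the minus strand (GENCODE M21, build GRCm38). Its level was 9.82, 9.69 and 9.70 FPKM in Angptl2-/- brains, against 14.4, 14.2 and 13.7 FPKM in Angptl2+/+ brains, or 9.74 ± 0.0695 against 14.1 ± 0.350 FPKM (SD, n = 3 each). The genotypes were far apart and the libraries within each were close together. The log2 fold change was -0.53 (SE 0.09), the 19th smallest p of all genes tested, and the limma adjusted p was 0.273, which did not pass. Behind these values lay 321, 279 and 271 fragments in Angptl2-/- brains and 437, 429 and 396 in Angptl2+/+ brains. Counting error alone at this depth gives a spread of 0.078 on the log2 scale, whereas the residual SD of Psmb10 was 0.0263, one of 3 members with a residual SD under their counting error. Microglial markers, from cells that are known to express immunoproteasome genes, summed to 107 to 125 FPKM in Angptl2-/- brains and 119 to 136 FPKM in Angptl2+/+ brains, with 1 of 7 genes higher and 1 lower in every Angptl2-/- library. Their part in the Psmb10 result was not tested.

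The Psmb10 to Psmb7 ratio of FPKM was 0.523, 0.556 and 0.507 in Angptl2-/- brains and 0.653, 0.679 and 0.758 in Angptl2+/+ brains, or 0.529 ± 0.0248 against 0.697 ± 0.0546 (SD, n = 3 each). The smallest p that 3 against 3 libraries allow in a two-sided exact permutation test is 0.1, so this ratio could not reach 0.05. The direction of this ratio turned once each library was corrected for GC content, as described with base composition, since the log2 fold change was then -0.26 for Psmb10 and -0.35 for Psmb7. Psmb7 belongs to the 10 members under 45% GC, all of which were negative after that correction. The ratio of Psmb8 to Psmb5, where Psmb8 had 9 to 23 fragments, was 0.00473 ± 0.00227 in Angptl2-/- brains and 0.00424 ± 0.00111 in Angptl2+/+ brains (SD, n = 3 each), and its genotypes overlapped. The ratio of Psmb9 to Psmb6 was 0.00326 ± 0.000929 in Angptl2-/- brains and 0.00634 ± 0.00227 in Angptl2+/+ brains (SD, n = 3 each). Its genotypes did not overlap, with 3 to 19 fragments behind Psmb9.

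**Figure D3:**
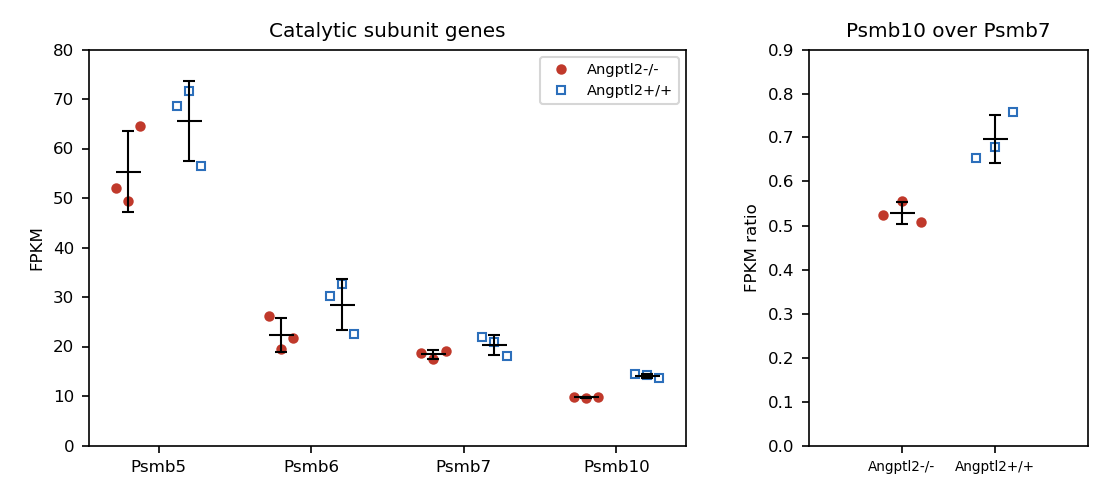
FPKM of the constitutive catalytic genes Psmb5, Psmb6 and Psmb7 and of Psmb10 in each library, and the Psmb10 to Psmb7 ratio, with filled circles for Angptl2-/- and open squares for Angptl2+/+ libraries and bars for mean and SD. The genotypes overlap for Psmb5, Psmb6 and Psmb7 and do not overlap for Psmb10, at 9.74 FPKM in Angptl2-/- and 14.1 FPKM in Angptl2+/+ brains.

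The other immunoproteasome genes were close to the limit of detection. Psmb8, the counterpart of Psmb5, had 23, 14 and 9 fragments in Angptl2-/- brains and 22, 14 and 14 in Angptl2+/+ brains, or 0.362, 0.238 and 0.156 FPKM against 0.369, 0.226 and 0.237 FPKM. Psmb9, the counterpart of Psmb6, had 6, 5 and 3 fragments in Angptl2-/- brains and 10, 19 and 7 in Angptl2+/+ brains, or 0.0855, 0.0810 and 0.05005 FPKM against 0.153, 0.292 and 0.113 FPKM. Psmb8 overlapped between the genotypes and Psmb9 did not, where 14.4% of 29827 genes had no overlap without the filter on low values. The thymic gene Psmb11 had 3, 2 and 2 fragments in Angptl2-/- brains and 6, 2 and 12 in Angptl2+/+ brains, and the genotypes overlapped. Without the filter on low values, the limma adjusted p was 0.913 for Psmb8, 0.562 for Psmb9 and 0.691 for Psmb11.

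The promoters of Psmb10 and of the constitutive catalytic genes Psmb5 and Psmb6 differed in the letters of the antioxidant response element, TGACNNNGC, which NFE2L1 and NFE2L2 bind. They are shown because Psmb10 had the smallest p of the members and Psmb5 and Psmb6 are catalytic genes with a RefSeq promoter, as the 200 bases before the RefSeq transcription start (build GRCm38.p6), 5′ to 3′ along the strand of the gene, with a match to TGACNNNGC in capitals.
Psmb10 (chr8:105938393-105938592, minus strand): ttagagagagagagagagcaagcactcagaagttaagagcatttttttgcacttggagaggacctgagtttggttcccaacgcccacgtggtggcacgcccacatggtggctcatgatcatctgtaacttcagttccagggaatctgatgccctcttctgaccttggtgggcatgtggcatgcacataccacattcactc
Psmb6 (chr11:70525157-70525356, plus strand): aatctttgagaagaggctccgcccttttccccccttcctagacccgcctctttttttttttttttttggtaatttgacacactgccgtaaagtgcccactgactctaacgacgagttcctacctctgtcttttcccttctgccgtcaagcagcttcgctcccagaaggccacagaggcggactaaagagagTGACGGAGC
Psmb5 (chr14:54617996-54618195, minus strand): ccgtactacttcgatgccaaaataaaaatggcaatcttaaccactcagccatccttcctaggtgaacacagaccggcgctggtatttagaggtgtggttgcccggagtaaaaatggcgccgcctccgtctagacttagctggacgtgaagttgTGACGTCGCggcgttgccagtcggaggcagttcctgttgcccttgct
The match began at position -9 from the start in Psmb6 and at -47 in Psmb5, and no match stood in the window of Psmb10. RefSeq promoters of 250 bases before to 50 after the start were matched to 33 of the 40 members, in 35 windows. On either strand, TGACNNNGC was found in 5 of the 35 windows (14.3%), those of Psmd9, Psmb6, Psmd12, Psmc6 and Psmb5, against 12.4% of 32851 promoters of the same length. CCAAT, the box bound by NF-Y, was found in 14 of the 35 windows (40.0%), against 37.4% of all promoters, and 0 member genes had both motifs. The members whose promoters hold TGACNNNGC had log2 fold changes of either sign, from -0.34 for Psmb6 to 0.30 for Psmc6.

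The ATPase ring genes, whose products unfold the substrate, had 4 negative and 2 positive log2 fold changes with a median of -0.13. Psmc1 had 48.2, 44.8 and 42.8 FPKM in Angptl2-/- brains, against 54.5, 56.3 and 53.8 FPKM in Angptl2+/+ brains. Psmc5, the most abundant member, had 61.7, 58.6 and 64.1 FPKM in Angptl2-/- brains, against 70.7, 73.6 and 67.4 FPKM in Angptl2+/+ brains. In both genes every Angptl2-/- library lay below every Angptl2+/+ library, with log2 fold changes of -0.28 (SE 0.09) for Psmc1 and -0.20 (SE 0.09) for Psmc5 and limma adjusted p of 0.274 and 0.328. After the GC correction Psmc5 was at -0.10 and its genotypes overlapped, whereas those of Psmc1 did not. Psmc6 went the other way with 19.7, 24.0 and 24.5 FPKM in Angptl2-/- brains and 17.8, 16.7 and 20.9 FPKM in Angptl2+/+ brains, and its genotypes overlapped (log2 fold change 0.30, SE 0.13, limma adjusted p = 0.324). Psmc1 and Psmc6 sit in the same ring of 6 ATPases, and the opposite sign of their log2 fold changes was lost after the GC correction, at -0.18 for Psmc1 and -0.06 for Psmc6. Psmc6 also belongs to the 10 members under 45% GC that were all negative after that correction.

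The remaining base genes encode scaffolds and a ubiquitin receptor, and all 3 had genotypes that did not overlap, 2 above and 1 below, against 22.5% of all genes tested. After the GC correction described with base composition, 1 of the 3 (Psmd2) had no overlap. Psmd1, a scaffold, had 15.4, 17.3 and 21.0 FPKM in Angptl2-/- brains and 14.6, 14.2 and 15.0 FPKM in Angptl2+/+ brains. Psmd2, the other scaffold, had 63.7, 61.7 and 63.7 FPKM in Angptl2-/- brains and 59.8, 61.0 and 61.3 FPKM in Angptl2+/+ brains. The gap was small in Psmd2, with a log2 fold change of 0.05 (SE 0.08), and larger in Psmd1, at 0.28 (SE 0.13), with limma adjusted p of 0.764 and 0.331. Psmd4, the ubiquitin receptor, had 20.3, 19.3 and 22.7 FPKM in Angptl2-/- brains and 23.0, 24.4 and 23.7 FPKM in Angptl2+/+ brains (log2 fold change -0.19, SE 0.10, limma adjusted p = 0.368).

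Lid genes had log2 fold changes from -0.15 to 0.26, 5 positive and 3 negative. Psmd14, the deubiquitinase that removes the chain, had 19.6, 23.7 and 26.2 FPKM in Angptl2-/- brains and 19.8, 18.3 and 19.5 FPKM in Angptl2+/+ brains. Psmd8, the most abundant lid gene, had 31.5, 32.1 and 25.998 FPKM in Angptl2-/- brains and 32.4, 34.2 and 32.5 FPKM in Angptl2+/+ brains. The first Angptl2-/- library overlapped the Angptl2+/+ libraries in Psmd14, and in Psmd8 the genotypes were apart by a narrow margin. Neither passed, with log2 fold changes of 0.26 (SE 0.13) and -0.15 (SE 0.11) and limma adjusted p of 0.343 and 0.507. Psmd11, which has been studied for its part in raising 26S assembly in stem cells, was level at 8.89, 8.57 and 8.86 FPKM in Angptl2-/- brains and 8.52, 8.87 and 8.79 FPKM in Angptl2+/+ brains.

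Among the assembly chaperones, Psmd5 had 6.93, 6.62 and 8.59 FPKM in Angptl2-/- brains and 6.49, 6.62 and 5.62 FPKM in Angptl2+/+ brains. Its log2 fold change was 0.23 (SE 0.14, limma adjusted p = 0.417), and the closest libraries of the genotypes were nearly equal. Psmd5 is also the member nearest to the deleted gene, 1.60 Mb from Angptl2 on chromosome 2, where Psmb7 lies 5.34 Mb away. Psmd9 had 2.50, 2.10 and 2.62 FPKM in Angptl2-/- brains and 2.84, 2.76 and 2.73 FPKM in Angptl2+/+ brains (log2 fold change -0.21, SE 0.14, limma adjusted p = 0.458), and Psmd10 had a log2 fold change of 0.00 (SE 0.19). Psmc3ip, the member that is not a subunit, had 1.66, 1.11 and 0.672 FPKM in Angptl2-/- brains and 0.863, 1.30 and 1.07 FPKM in Angptl2+/+ brains, with the genotypes overlapping.

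The direction of the members followed the base composition of their exons. Over the 36 tested members the log2 fold change had a correlation of r = -0.717 with exon GC content, against -0.488 over 14853 genes tested, as a description across genes of the same 6 libraries, which share depth and normalization. Of the 15 members with a GC content of at least 50%, 14 were negative, with a median of -0.16, and 8 had Angptl2-/- below Angptl2+/+ without overlap, whereas the 6945 genes tested in that GC class had a median of -0.20 and 22.7% lay below without overlap. Of the 10 members under 45%, 9 were positive, Psmb7 being the exception, with a median of 0.08 and 0 without overlap, whereas the 3978 genes tested under 45% had a median of 0.24 and 25.2% lay above without overlap. The 11 members in between had 9 positive values and a median of 0.06, and 4 had no overlap (3 above, 1 below). This compares with 15.1% of the 3922 genes tested in that class. After the GC correction given below, 4 of the 11 had no overlap (1 above, 3 below), against 12.7% of that class. Within each library, the mean log2 level of the GC-rich members minus that of the GC-poor members was 0.87, 0.79 and 0.62 in Angptl2-/- brains and 0.99, 1.11 and 1.03 in Angptl2+/+ brains, so the genotypes did not overlap in this balance. It restates the correlation above in the same members and libraries, and the balance over all genes tested was not computed. Psmb10, at 56.7% GC, and Psmc6, at 37.8% GC, lie at opposite ends of the composition as well as of the fold changes.

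**Figure D4:**
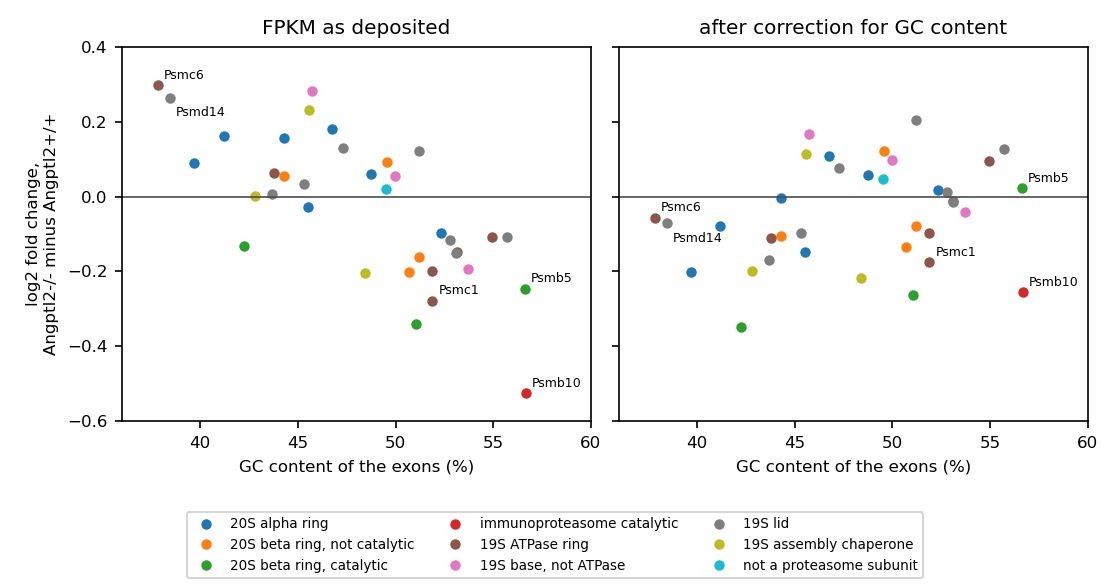
Log2 fold change of the 36 tested members, Angptl2-/- minus Angptl2+/+, against the GC content of their exons in percent, from the FPKM as deposited (left) and after a loess correction of each library for GC content (right), with colours for roles. The correlation on the left is r = -0.717 and on the right r = 0.262, where Psmb10 lies at -0.26 and Psmb5 at 0.02.

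When each library was corrected for a smooth trend of level on GC content, 14 members were positive and 22 negative, with a median of -0.05, and 8 of 36 had no overlap (1 above, 7 below), against 12.9% of all genes tested. All 10 members under 45% GC, Psmb7 and Psmc6 among them, were negative after the correction. Their median was -0.11, against 0.0074 over the 3978 genes tested in that class. The correlation with GC content was r = 0.262 over the members, against 0.0047 over all genes tested. Signs of GC-poor members after the correction carry this limit. The log2 fold change of Psmb10 was then -0.26 with a limma adjusted p of 0.732, its libraries still without overlap, and that of Psmc1 was -0.18. Psmb7 moved to -0.35 (limma adjusted p = 0.726), Psmb6 to -0.26 and Psmb5 to 0.02, so the catalytic genes no longer shared a sign. The part of base composition, or of the cell makeup of the samples, in these differences was not tested.

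Of 41 other genes of the ubiquitin-proteasome pathway, 39 passed the filter on low values, all but Nlrc5 and Tap1. None of the 39 passed an adjusted p of 0.05. At an unadjusted p under 0.05, 2 were higher in Angptl2-/- brains (Usp14 and Uba6) and 4 were lower (Adrm1, Ubb, Nfe2l1 and H2-D1), or 6 of 39 against 16.2% of all genes tested, and 9 of 39 (23.1%) had genotypes that did not overlap, 5 above and 4 below, against 22.5% of all genes tested. Their median log2 fold change was 0.06. Usp14 and Ubb were named after their values were seen, for their unadjusted p.

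Deubiquitinases and receptors bound to the 19S particle differed in direction. Usp14, a deubiquitinase that trims chains on the proteasome, had 24.4, 28.8 and 32.9 FPKM in Angptl2-/- brains and 17.5, 19.5 and 24.2 FPKM in Angptl2+/+ brains. Adrm1, a ubiquitin receptor of the base, had 10.5, 9.13 and 8.01 FPKM in Angptl2-/- brains and 12.1, 13.0 and 11.8 FPKM in Angptl2+/+ brains. Neither overlapped between the genotypes, with log2 fold changes of 0.49 (SE 0.16) and -0.42 (SE 0.13) and limma adjusted p of 0.274 and 0.273. After the GC correction they were at 0.18 and -0.16, and the genotypes of Usp14 overlapped.

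Ubb, which encodes a chain of ubiquitin units, had 301, 204 and 186 FPKM in Angptl2-/- brains and 377, 363 and 304 FPKM in Angptl2+/+ brains. The genotypes did not overlap, and the log2 fold change was -0.62 (SE 0.19) and -0.39 after the GC correction. Genes for ubiquitin share near-identical coding sequence, so the level assigned to Ubb is uncertain. Uba6, one of the enzymes that activate ubiquitin, had 4.35, 4.48 and 4.51 FPKM in Angptl2-/- brains and 3.05, 3.21 and 3.39 FPKM in Angptl2+/+ brains, with a log2 fold change of 0.46 (SE 0.11, limma adjusted p = 0.273). After the GC correction Uba6 was at 0.09.

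Nfe2l1, the transcription factor that controls the subunit genes, had 51.0, 49.0 and 45.3 FPKM in Angptl2-/- brains, against 55.5, 61.7 and 58.2 FPKM in Angptl2+/+ brains. The genotypes did not overlap, and the log2 fold change was -0.27 (SE 0.10, limma adjusted p = 0.277) and -0.06 after the GC correction. The 20S assembly chaperones, with a median of 0.12 over 5 genes, and the activators and inhibitor of the core, with a median of 0.08 over 5 genes, had no gene at an unadjusted p under 0.05, their smallest p being that of Psmg4 and Psme3. Psmg4 had 9.11, 7.15 and 8.36 FPKM in Angptl2-/- brains and 7.87, 6.69 and 7.96 FPKM in Angptl2+/+ brains (log2 fold change 0.12, SE 0.13). Psme3, a subunit of an activator found in the nucleus, had 32.0, 32.8 and 34.05 FPKM in Angptl2-/- brains and 30.3, 28.97 and 32.9 FPKM in Angptl2+/+ brains (log2 fold change 0.10, SE 0.09), and both genes overlapped. Among shuttles and unfolding factors, Ufd1, a partner of the unfoldase VCP, had 15.3, 13.6 and 16.7 FPKM in Angptl2-/- brains and 12.8, 12.9 and 13.2 FPKM in Angptl2+/+ brains (log2 fold change 0.22, SE 0.11, limma adjusted p = 0.349).

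The interferon and antigen presentation genes, which are induced together with the immunoproteasome, had 6 of 8 negative log2 fold changes with a median of -0.26. Of all genes tested, 7514 of 14862 were negative. In this list 1 of 8 had an unadjusted limma p under 0.05 and 0 had genotypes without overlap, against 16.2% and 22.5% of all genes tested. H2-D1, a class I major histocompatibility gene, had 10.2, 7.56 and 7.64 FPKM in Angptl2-/- brains and 14.3, 14.6 and 9.02 FPKM in Angptl2+/+ brains. The third Angptl2+/+ library lay below the first Angptl2-/- library, so the genotypes overlapped (log2 fold change -0.55, SE 0.22, limma adjusted p = 0.287). After the GC correction H2-D1 was at -0.41.

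**Figure D5:**
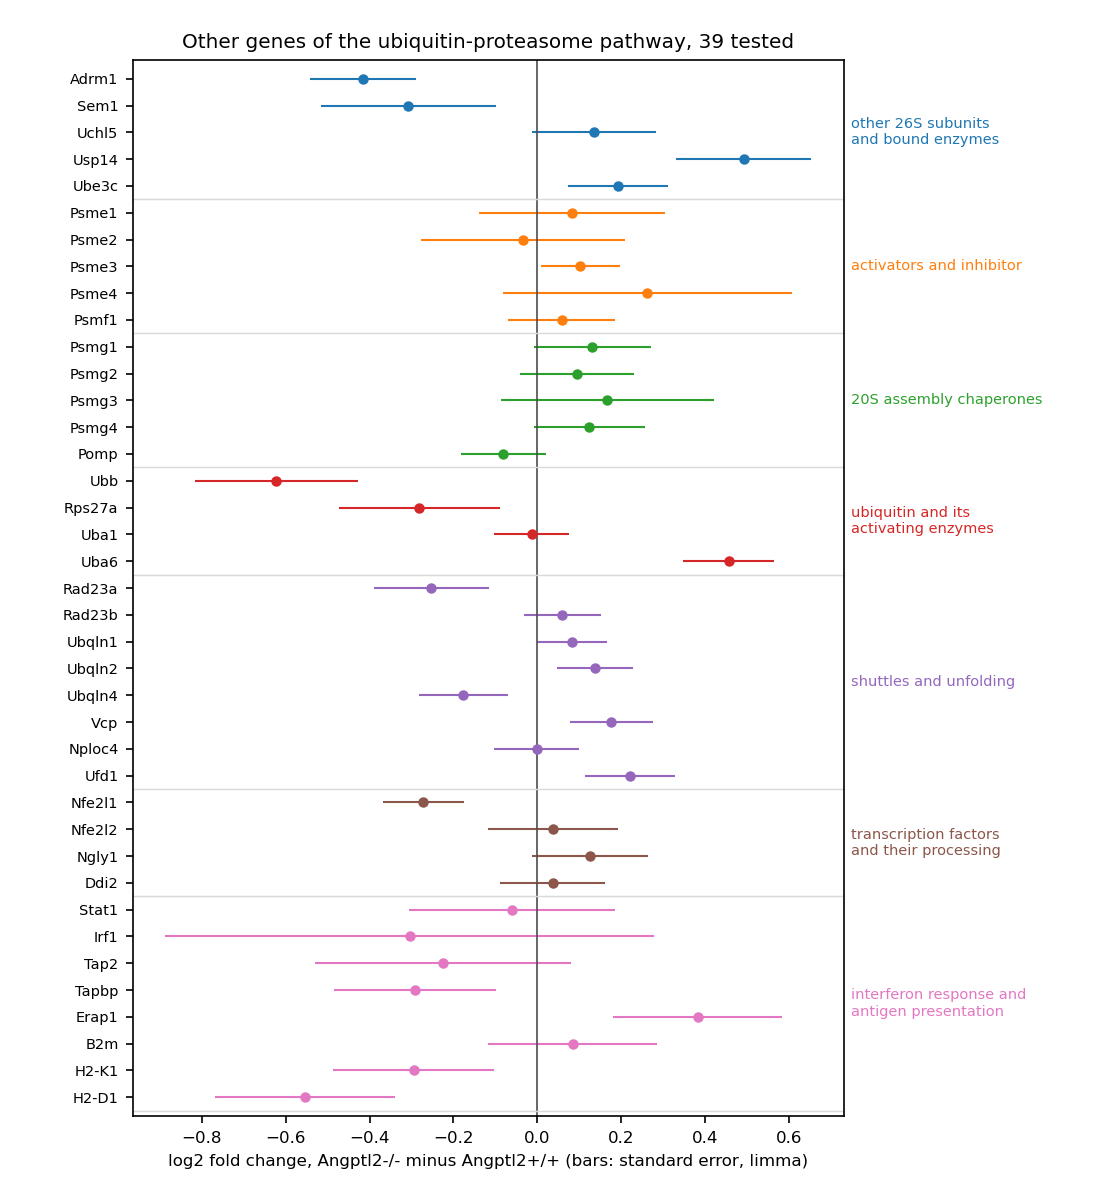
Log2 fold change of the 39 tested genes of the wider ubiquitin-proteasome pathway, Angptl2-/- minus Angptl2+/+, by function, with bars for the standard error from limma. Ubb and H2-D1 lie left of 0 at -0.62 and -0.55, and Usp14 and Uba6 lie right of it at 0.49 and 0.46.

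Some members share their locus with another gene, and the strand setting of the counting is not given in the sources used here. Psmd13 contains the processed pseudogene Gm15542 on its own strand, listed at 10.1 FPKM, and Psma2 overlaps AW209491 on the same strand over 8943 bases. On the opposite strand Psmb7 overlaps Nek6 over 6571 bases, Psmc3 overlaps Slc39a13 over 4579 bases and Psmc3ip overlaps Mlx over 385 bases, so the levels of these members carry that uncertainty. Psmb10 overlaps the antisense gene Gm16156, which was listed at 0.0277 FPKM on average. The 4 annotated pseudogenes with a proteasome gene symbol were at 0 FPKM in all libraries.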

How the data were processed

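RNA was extracted from mouse brain with TRIzol and sequenced as paired ends on an Illumina instrument. The authors deposited 1 table of FPKM values per gene for 6 libraries, 3 Angptl2-/- and 3 Angptl2+/+. The submitters' processing notes name Bowtie 0.12.2 and the build mm8, whereas 54495 of the 54532 gene IDs were matched to GENCODE M21 (GRCm38). Neither the tool that counted fragments nor its gene models and strand mode were stated in the sources used here. FPKM multiplied by exon length gave whole fragments for 96.64% to 96.77% of values (tolerance 0.05).

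Genes with a mean of at least 0.5 FPKM were tested on the log2(FPKM + 0.1) scale using limma 3.58.1 (R 4.3.3), with an intensity trend and Benjamini-Hochberg adjustment, without a replicate block. The fit was run on simulated data with less noise than these libraries and larger changes than those of the members. That run gives no error rate for these data. Per-library values were given for the catalytic genes, the most abundant member and the member with the smallest p of each role, members under the filter, and the pathway gene with the smallest p of each list and Nfe2l1; further genes were named after their values were seen. Members and lists were chosen with earlier results of these data known. Some pathway genes are not reported here. Promoters came from RefSeq (GRCm38.p6). Alternatives were other pseudocounts, filters, scalings, a fit without the trend, a replicate block, voom, corrections for GC content (loess, span 0.3) or length, and leaving out each library. Same-numbered samples deviated with correlations of 0.037, -0.069 and 0.162, and differently numbered ones with -0.256 to 0.257. These values cannot show whether the numbers pair samples, which the labels do not say. Pairs of libraries correlated at r = 0.934 to 0.966, and none was a duplicate of another.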

Additional observations from a re-analysis of the deposited data

How the results depend on the processing

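Over 18 alternatives, 0 of the 648 combinations of a member and a setting reached an adjusted p of 0.05, 30 changed direction, and 19 of 36 members kept their direction in every setting. Psmb10 stayed negative throughout, from -0.55 to -0.26, with limma adjusted p between 0.180 and 0.732, and Psmc1 ranged from -0.32 to -0.18. The number of members at an unadjusted p under 0.05, 2 in the reported fit, was 5 (3 higher, 2 lower) with quantile normalization and 1 to 7 when a library was left out, with 7 without the first Angptl2-/- library, 5 without the third Angptl2+/+ library, and 1 without the second library of either genotype. In the reported fit 16.2% of all genes tested were at this p. That share is not given for the other settings, so these counts are no result about the members. The number without overlap, 12, was 12 to 22 when a library was left out, with 22 (61.1%) without the first Angptl2-/- and 21 (58.3%) without the third Angptl2+/+ library, where 41.4% and 43.0% of all genes tested had no overlap. It fell to 9 (25%) with voom, against 22% of all genes tested, and to 8 (22.2%) with the GC correction, against 12.9%. It was 10 (27.8%) with the length correction, against 21.9%, and 10 (27.8%) when rescaled without mitochondrial and haemoglobin genes, against 22.3%. The median log2 fold change was -0.063 with no filter (40 genes), 0.066 with the length correction and -0.066 to 0.014 when a library was left out. Over all genes, 1 passed an adjusted p of 0.05 with the replicate block (Ttr, a choroid plexus gene, log2 fold change 6.92, adjusted p = 0.0233) and 0 to 1 did when a library was left out (Gapdh, -5.21, adjusted p = 0.00116, without the first Angptl2+/+ library). With the replicate block no member passed. The labels do not say whether same-numbered libraries are paired. Of the pathway genes, 6 had an unadjusted p under 0.05 in the reported fit, 2 with the GC correction and 3 to 11 when a library was left out, with 11 without the third Angptl2+/+ library and 3 without the third Angptl2-/- library. These counts too lack the share of all genes in each setting.

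The GC correction changed the sign of Psma1 (-0.0037), Psma7 (0.018), Psma2 (-0.20), Psma3 (-0.080), Psmb1 (-0.11), Psmb5 (0.023), Psmc3 (0.10), Psmc6 (-0.056), Psmc2 (-0.11), Psmd7 (0.011), Psmd12 (-0.10), Psmd3 (0.13), Psmd14 (-0.071), Psmd11 (-0.17) and Psmd10 (-0.20). Quantile normalization did so for Psma4 (0.020), voom for Psmd11 (-0.0051) and Psmd10 (-0.0057), and the length correction for Psma4 (0.063) and Psmd11 (-0.023). With a library left out, the ranges crossed 0 for Psmd11 (-0.0090 to 0.025), Psmd10 (-0.12 to 0.15), Psmc3ip (-0.27 to 0.33), Psmb1 (-0.051 to 0.11) and Psmd12 (-0.014 to 0.060). The cause was not tested. With 3 libraries per genotype and 1 to 23 fragments behind each value of the members under the filter, counting error limits Psma8, Psmb8, Psmb9 and Psmb11, of which Psma8 and Psmb9 had no overlap and none passed an adjusted p of 0.05 without the filter. In that fit 14.4% of 29827 genes had no overlap.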
